A study of Mus musculus with 4 samples.

Results

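The genes described here encode the subunits of the mitochondrial respiratory chain and ATP synthase, and were followed by H3K9ac and H3K14ac ChIP-seq in mouse embryonic stem (mES) cells. Members were the protein-coding genes of GENCODE vM1 (mouse genome mm9) on chromosomes 1 to 19 whose symbols begin with Nduf followed by a, b, c, s or v, with Uqcr, with Atp5 or with Cox followed by a digit from 4 to 8, together with Sdha, Sdhb, Sdhc and Sdhd. This name rule selected 89 genes out of 21418, and no measured value entered it. The 89 genes carried 88 symbols, since Ndufb8 has a second gene model that begins 2609 bp downstream of the first. The rule also took up some genes that do not encode subunits: the complex I assembly factors Ndufaf1 to Ndufaf4, Cox7a2l (a factor of supercomplex assembly), Atp5s, Atp5sl, Cox4nb (a subunit of a membrane insertion complex of the endoplasmic reticulum, named after its neighbour Cox4i1) and Atp5l-ps1, whose symbol is that of a pseudogene. These 9 genes were kept as a group of their own.

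Each of 4 libraries came from 1 sample of untreated E14 mES cells of strain 129P2/OlaHsd at passages 25 to 30: a ChIP with the polyclonal H3K9ac antibody AB4441, a ChIP with each of the monoclonal H3K14ac antibodies 13HH3 and 7G8, and the input chromatin without antibody. The study's methods describe the cells as derived from blastocysts, grown on feeder cells and then passaged without feeders. The libraries held 23183487 (H3K9ac), 22365676 (13HH3), 23839094 (7G8) and 19313927 (input) mapped tags of 36 bases. There was no replicate of any library, so that no test between antibodies or genes could use replicate error, and every interval given is an exact 95% interval that covers counting error only. Of the 8 ES cell markers, 7 had at least 2-fold more H3K9ac tags than input at their transcription start site (TSS), compared with 1 of 7 fibroblast markers, 1 of 7 heart and skeletal muscle markers and 0 of 6 testis markers. Over all protein-coding TSSs the share was 57.8%.

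The respiratory chain passes electrons from NADH (complex I) and succinate (complex II) through ubiquinone, complex III and cytochrome c to oxygen (complex IV), and ATP synthase (complex V) uses the resulting proton gradient to make ATP. Nearly all subunits are encoded in the nucleus and made in every cell type, whereas several subunits of complex IV exist as a ubiquitous isoform and an isoform made mainly in heart and skeletal muscle, lung or testis. Acetylation of lysines 9 and 14 of histone H3 is found around the TSSs of active genes. Promoters of respiratory chain genes are known for CpG islands and for sites of NRF1, of ETS factors such as GABP and of YY1.

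The promoters of a ubiquitous and a muscle isoform of the same subunit differ visibly in sequence. The following stretches run from 150 bp upstream to 20 bp downstream of the TSS (mm9, 5′ to 3′ on the strand of the gene), with matches to the NRF1 motif GCGCNTGCG, the ETS motif, the CCAAT box and the TATA box on either strand in capitals. Cox6a1 and Cox8a are the ubiquitous isoforms, Cox6a2 and Cox8b their counterparts of heart and skeletal muscle, and Sdha and Sdhd are 2 of the subunit genes with an NRF1 match.
Cox6a1, chr5:115798971-115799140, minus strand: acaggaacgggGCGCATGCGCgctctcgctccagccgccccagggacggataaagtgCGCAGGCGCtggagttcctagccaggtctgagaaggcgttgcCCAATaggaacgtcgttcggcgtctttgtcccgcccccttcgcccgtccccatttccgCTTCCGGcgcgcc
Cox6a2, chr7:135349861-135350030, minus strand: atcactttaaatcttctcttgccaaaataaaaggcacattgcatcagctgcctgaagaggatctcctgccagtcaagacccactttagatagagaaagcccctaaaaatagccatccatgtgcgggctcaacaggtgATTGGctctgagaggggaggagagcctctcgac
Cox8a, chr19:7292087-7292256, minus strand: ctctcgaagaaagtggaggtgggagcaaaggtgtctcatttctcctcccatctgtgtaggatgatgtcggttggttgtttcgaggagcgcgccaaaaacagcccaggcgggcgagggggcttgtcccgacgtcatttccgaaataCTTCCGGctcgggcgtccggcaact
Cox8b, chr7:148086326-148086495, minus strand: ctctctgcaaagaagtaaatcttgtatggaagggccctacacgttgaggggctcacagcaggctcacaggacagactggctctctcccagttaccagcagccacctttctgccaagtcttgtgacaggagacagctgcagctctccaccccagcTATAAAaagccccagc
Sdha, chr13:74487709-74487878, minus strand: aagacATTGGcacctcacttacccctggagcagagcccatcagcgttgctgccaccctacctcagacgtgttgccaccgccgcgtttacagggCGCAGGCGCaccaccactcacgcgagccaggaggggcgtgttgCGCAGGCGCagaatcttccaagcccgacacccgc
Sdhd, chr9:50411935-50412104, minus strand: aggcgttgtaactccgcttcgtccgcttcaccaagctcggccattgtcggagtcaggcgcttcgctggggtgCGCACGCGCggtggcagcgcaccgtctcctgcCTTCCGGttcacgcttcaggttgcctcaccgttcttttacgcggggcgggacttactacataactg
Within these stretches Cox6a1 held 21 CpGs against 2 in Cox6a2, and Cox8a held 14 against 1 in Cox8b. The TATAAA match in Cox8b begins 4 bp downstream of the annotated TSS, and whether it acts as a TATA box was not tested.

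H3K9ac was present at nearly all respiratory chain promoters. Counts from windows of 2 kb on each side of the TSS were scaled to tags per 10000000 and are given as log2 over input, where a value of 1 is a 2-fold excess. All 89 members had at least 5 input tags. For H3K9ac, 82 of 89 members (92.1%) reached 2-fold, compared with 57.8% of 20746 protein-coding TSSs that passed the same filter. The median log2 value was 2.35 at the members and 1.32 at all TSSs. In tags per 10000000, the members had a median of 91.5 H3K9ac tags against 54.4 at all TSSs, while their median input was 18.1 tags against 18.6.

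H3K14ac was lower over input than H3K9ac at the same promoters. With 13HH3, 23 members (25.8%) reached 2-fold, beside 16.9% of all TSSs, and the median log2 over input was 0.60 beside 0.36. With 7G8, 29 members (32.6%) reached 2-fold, beside 17.1% of all TSSs, with medians of 0.72 and 0.36. The median number of tags per 10000000 at the members was 26.4 for 13HH3 and 30.2 for 7G8, compared with 25.9 and 25.2 at all TSSs. The median log2 of 13HH3 over H3K9ac was -1.82 at the members and -0.92 at all TSSs, and 83 members were at or below 1/2 in this ratio beside 47.5% of all TSSs. For 7G8 over H3K9ac the medians were -1.60 and -1.07, and 83 members were at or below 1/2 beside 53.1% of all TSSs. The ratio of 2 antibodies depends on how well each one enriches, and so do its differences between genes, since an antibody that enriches weakly also has a narrower range of log2 values. Whether the members differ from the average TSS by more in H3K9ac than in H3K14ac was not tested. Among TSSs with at least 2-fold H3K9ac, the gap was smaller, with median log2 13HH3 over H3K9ac of -1.84 at 82 members and -1.47 at 11983 TSSs. This filter uses H3K9ac, the denominator of the ratio, and removed a larger share of all TSSs than of the members. The smaller gap can therefore not be told apart from the selection. In this subset 13HH3 reached 2-fold at 28.0% of members and 27.9% of TSSs, with median log2 over input of 0.63 and 0.67. With 7G8 the shares were 35.4% and 28.6%, with medians of 0.846 and 0.675. For H3K9ac the medians there were 2.409 and 2.075.

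**Figure D1:**
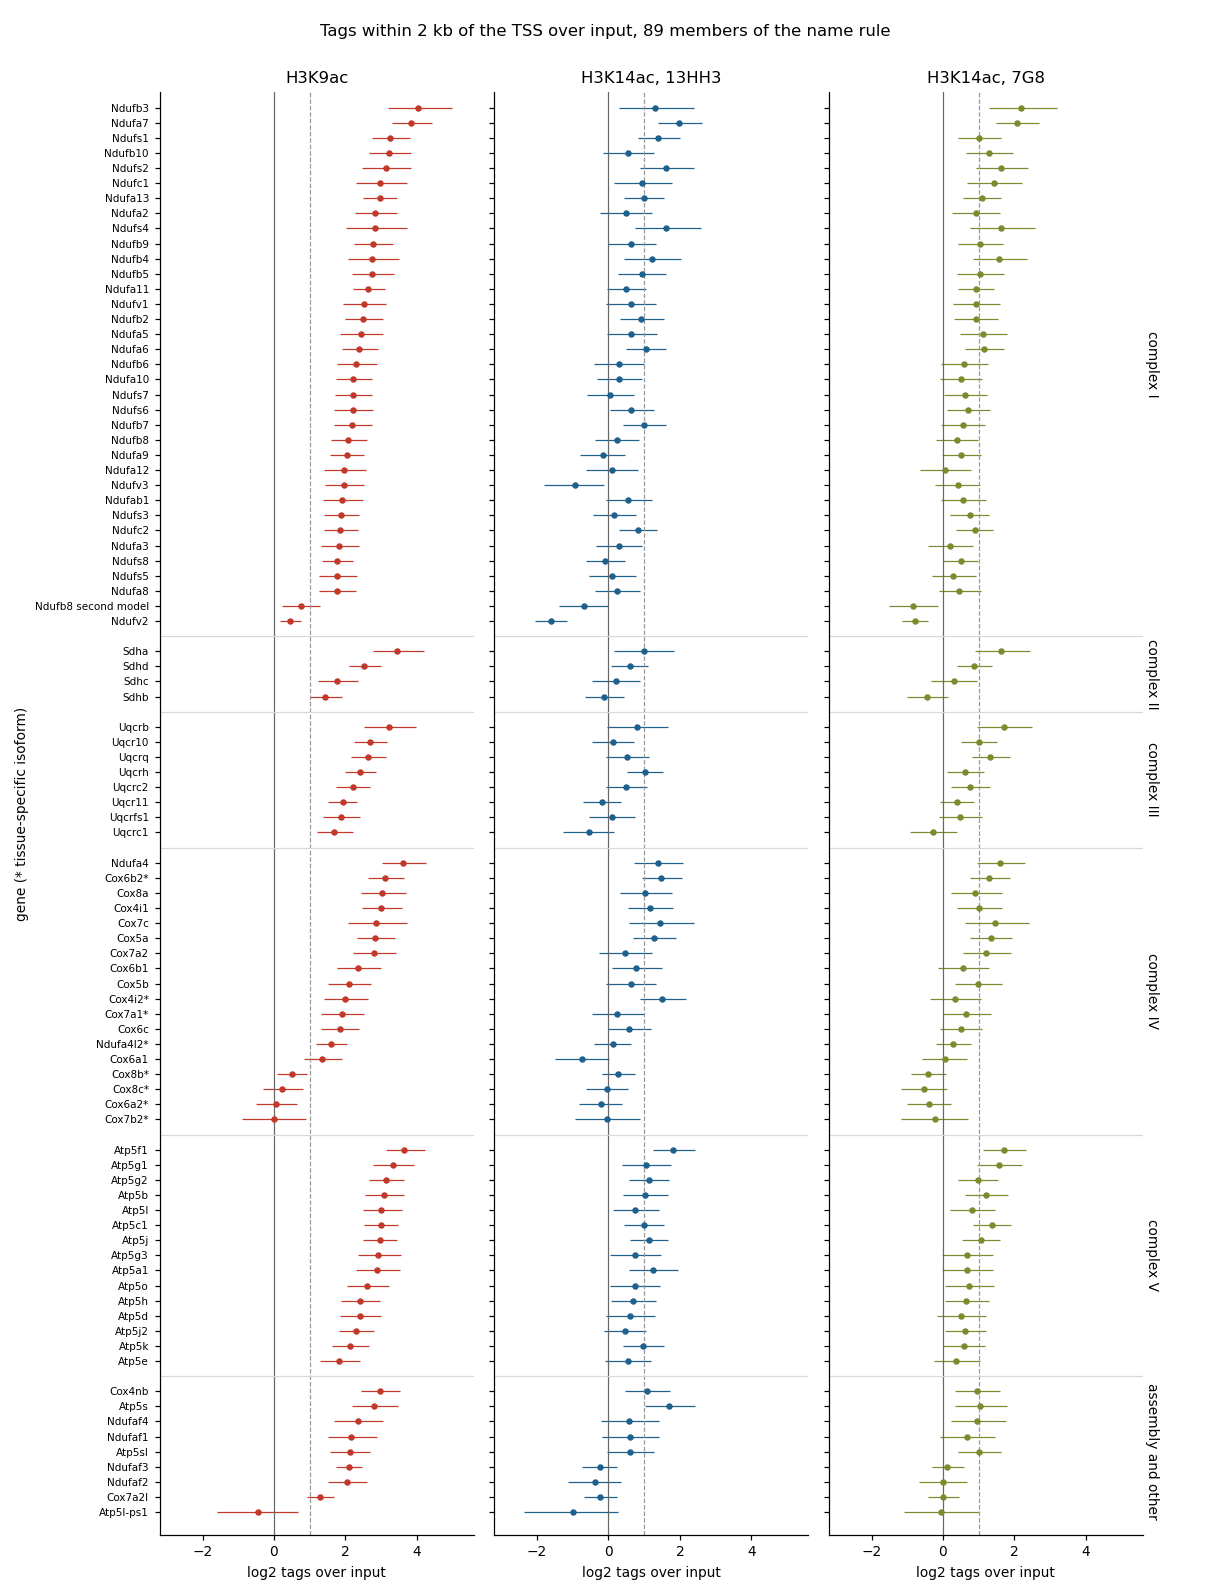
Log2 tags over input within 2 kb of the TSS for the 89 members (rows, by complex and in order of H3K9ac), in the H3K9ac, 13HH3 and 7G8 libraries (panels). Points are single libraries, bars are exact 95% counting intervals and the dashed line is 2-fold. In H3K9ac 82 members lie to the right of the dashed line, compared with 23 in 13HH3 and 29 in 7G8.

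The median log2 H3K9ac over input was 2.30 for 35 complex I genes, 2.15 for 4 complex II genes, 2.31 for 8 complex III genes, 2.81 for the 10 complex IV genes that are not tissue-specific isoforms and 2.92 for 15 complex V genes. With the tissue-specific isoforms, the 18 complex IV genes had a median of 2.04. Differences between complexes were not tested. In complexes II, III and V every gene reached 2-fold for H3K9ac, as did the 10 complex IV genes and 33 of 35 genes of complex I. Of all TSSs 57.8% did so. With 13HH3, 2-fold was reached by 7 of 35 genes of complex I, 0 of 4 of complex II, 1 of 8 of complex III, 5 of those 10 of complex IV and 6 of 15 of complex V, beside 16.9% of all TSSs. The shares of complexes I and III were near this background. With 7G8 the counts in the same order were 13 of 35, 1 of 4, 2 of 8, 5 of 10 and 5 of 15, beside 17.1% of all TSSs.

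In complex I, the entry point for NADH, H3K9ac over input was highest at Ndufb3, an accessory subunit of the membrane arm. Ndufb3 had 234 H3K9ac, 33 13HH3, 67 7G8 and 12 input tags, which gave a log2 H3K9ac over input of 4.02 (interval 3.19 to 4.99). The input count was the lowest of any member, and in H3K9ac tags alone Ndufb3 was not extreme, with 101 tags per 10000000 beside the members' highest of 214. Ndufv2, an iron-sulphur subunit of the NADH dehydrogenase module, was the lowest of complex I. It had 253 H3K9ac tags, a number above that of Ndufb3, but also 154 input tags, and its log2 H3K9ac over input was 0.45 (interval 0.16 to 0.75).

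The input at Ndufv2 stood apart from that of the other members, whose input counts did not exceed 84. In steps of 500 bp from 2 kb upstream to 2 kb downstream of the Ndufv2 TSS, input counted 3, 9, 20, 28, 26, 28, 12 and 28 tags, and H3K9ac 6, 4, 23, 44, 73, 52, 29 and 22. Between 20 kb and 500 kb from the TSS, the log2 of H3K9ac over input was already -1.23 there. Scaled to these flanks, H3K9ac at Ndufv2 was 1.68 and 7G8 was 1.03, compared with 0.45 and -0.79 by library totals. With 13HH3 it was -1.60 by library totals, the lowest of all members, and its sign did not change with flank scaling. Chromosome 17, where Ndufv2 lies, had log2 ratios over input of -0.29 (H3K9ac), -0.39 (13HH3) and -0.44 (7G8) as a whole. Other members on this chromosome included Ndufa7 at 3.83 in H3K9ac (29 input tags) and Ndufa11 at 2.64 (48), but also Cox7a2l at 1.30 (84). The part of the high input in the low value of Ndufv2 was not tested.

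The second gene model of Ndufb8, an accessory subunit of complex I, begins inside the gene and shares 1391 bp of its window with the first. It had 93 H3K9ac and 46 input tags and a log2 value of 0.75 (interval 0.23 to 1.29), compared with 207 and 41 tags and 2.07 at the first model. The 500 bp stretch with the most H3K9ac tags was centred 1750 bp upstream of the second start, in the shared stretch.

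In complex II, which oxidizes succinate, H3K9ac over input was highest at Sdha, the flavoprotein, and lowest at Sdhb, the iron-sulphur protein. Sdha had 250 H3K9ac, 42 13HH3, 73 7G8 and 19 input tags (log2 H3K9ac over input 3.45, interval 2.78 to 4.21). Sdhb had 182, 58, 51 and 56 tags (1.44, interval 1.00 to 1.90). Over input Sdhd, a membrane anchor, was between them (2.53), with 354 H3K9ac and 51 input tags. In H3K9ac tags alone the order differed, with the most at Sdhd and the fewest at Sdhc (144). Sdha had the fewest and Sdhb the most input tags of the 4. Sdhb was the only one of the 4 whose TSS had no divergent neighbour within 1 kb.

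Complex III transfers electrons from ubiquinol to cytochrome c. In it, H3K9ac over input was highest at Uqcrb, a small ubiquinone-binding subunit, and lowest at Uqcrc1, a core protein. In H3K9ac tags alone, Uqcr10 had the most of complex III, with 363 H3K9ac and 47 input tags. Uqcrb had 211 H3K9ac, 37 13HH3, 76 7G8 and 19 input tags (3.21, interval 2.53 to 3.97), and Uqcrc1 had 163, 32, 43 and 42 (1.69, interval 1.20 to 2.22). At Uqcrc1 log2 over input was -0.56 (interval -1.27 to 0.14) with 13HH3 and -0.27 (interval -0.92 to 0.38) with 7G8, and within 500 bp of the TSS these values were 0.28 and 0.64. In complex V the highest was Atp5f1, a subunit of the peripheral stalk, with 467 H3K9ac, 122 13HH3, 124 7G8 and 31 input tags (3.65, interval 3.12 to 4.22). The lowest was Atp5e, a subunit of the central stalk, with 149, 57, 56 and 35 tags (1.83, interval 1.29 to 2.40).

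Of the 9 genes that the name rule took up beside the subunits, 8 reached 2-fold for H3K9ac, beside 57.8% of all TSSs. The highest over input was Cox4nb with 299 H3K9ac and 32 input tags (2.96, interval 2.43 to 3.54). However, its TSS lies 178 bp from that of Cox4i1 and the windows share 3822 bp, so that nearly the same tags were counted for both. The lowest of all members was Atp5l-ps1, with 14 H3K9ac, 9 13HH3, 19 7G8 and 16 input tags (-0.46, interval -1.60 to 0.67).

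Tissue-specific isoforms of complex IV made up most of the remaining low values. The 7 members under 2-fold for H3K9ac were Atp5l-ps1, Ndufv2, the second model of Ndufb8 and the isoforms Cox6a2, Cox7b2, Cox8b and Cox8c. Of the 8 tissue-specific isoforms 4 reached 2-fold, compared with 78 of the other 81 members and with 57.8% of all TSSs, so that the share of the isoforms was near that of the average TSS.

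The muscle isoform of subunit VIa, Cox6a2, had 63 H3K9ac, 48 13HH3, 47 7G8 and 50 input tags. Its ubiquitous counterpart Cox6a1 had 123, 27, 51 and 40. In log2 H3K9ac over input Cox6a2 (0.07) was lower than Cox6a1 (1.36) by a difference of -1.29 (interval -2.08 to -0.50). In 13HH3 over input the order was the opposite, -0.22 and -0.73, with an interval of the difference (-0.46 to 1.49) that included 0.

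Subunit VIII has a muscle isoform, Cox8b, and a testis isoform, Cox8c, beside the ubiquitous Cox8a. Tags of H3K9ac, 13HH3, 7G8 and input were 124, 99, 68 and 73 at Cox8b, 68, 52, 41 and 48 at Cox8c, and 245, 57, 58 and 25 at Cox8a. In H3K9ac over input, Cox8b (0.50) and Cox8c (0.24) were far lower than Cox8a (3.03), with differences of -2.53 (interval -3.31 to -1.77) and -2.79 (interval -3.65 to -1.94), the largest among the pairs. In 13HH3 the differences were -0.75 (interval -1.62 to 0.10) and -1.07 (interval -2.03 to -0.13).

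For subunit IV, the lung isoform Cox4i2 had 139 H3K9ac, 92 13HH3, 45 7G8 and 29 input tags, and the ubiquitous Cox4i1 had 299, 78, 77 and 31. H3K9ac was thus lower at Cox4i2 (2.00 and 3.01, difference -1.01, interval -1.85 to -0.16), whereas 13HH3 was 1.502 and 1.168 (difference 0.33, interval -0.58 to 1.25). Over input, 7G8 at Cox4i2 was 0.33, beside 1.01 at Cox4i1. The muscle isoform Cox7a1 had 134, 40, 58 and 30 tags and its counterpart Cox7a2 had 224, 42, 77 and 27, with a difference in H3K9ac of -0.89 (interval -1.76 to -0.02).

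Ndufa4, once counted to complex I and now placed in complex IV, had 365 H3K9ac, 73 13HH3, 94 7G8 and 25 input tags and the highest H3K9ac over input of complex IV (3.61, interval 3.02 to 4.25). Its relative Ndufa4l2, known for induction in hypoxia and not for a tissue, was counted with the tissue-specific isoforms throughout. It had 218, 73, 90 and 60 tags (1.60), and the difference was -2.01 (interval -2.78 to -1.26). At Ndufa4l2 the 500 bp with the most H3K9ac tags was centred 1750 bp downstream of the TSS, at the edge of the window.

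The testis isoform Cox6b2 was the exception. It had 386 H3K9ac, 115 13HH3, 112 7G8 and 37 input tags, more than the ubiquitous Cox6b1 with 165, 52, 49 and 27. Its log2 H3K9ac over input was 3.12 beside 2.35, and the difference of 0.77 had an interval of -0.05 to 1.58. Of its H3K9ac tags 308 lay downstream of the TSS and 78 upstream. Of the other testis isoforms Cox8c was at 0.24, and Cox7b2, whose ubiquitous counterpart is X-linked, had 25 H3K9ac, 23 13HH3, 22 7G8 and 21 input tags (-0.01, interval -0.91 to 0.90). The testis form of cytochrome c, Cyct, which is no member, had 168 H3K9ac and 27 input tags and was at 2.37 (interval 1.78 to 3.02). Testis genes of other function, among them the protamine genes Prm1 and Prm2, were between -0.83 and 0.64.

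Over the 7 pairs the tissue-specific isoform was lower in H3K9ac over input in 6, with intervals below 0 in all 6 and a median difference of -1.29. In 13HH3 it was lower in 4 pairs, with 2 intervals below 0 (Cox8c and Ndufa4l2) and a median of -0.22. In 7G8 it was lower in 6 pairs, with 3 intervals below 0 (Cox8b, Cox8c and Ndufa4l2) and a median of -0.68. The ratio of 13HH3 over H3K9ac was higher at the tissue-specific isoform in 6 pairs, with 5 intervals above 0 and a median difference of 1.34. The median log2 13HH3 over H3K9ac was 0.26 in 10 kb bins of the genome. At the fibroblast, muscle and testis markers it was -0.08, 0.38 and 0.11. At TSSs with 2-fold H3K9ac, a set chosen on the denominator of this ratio, it was -1.47. Cox6a2, Cox8b and Cox8c had little H3K9ac over input, with ratios of -0.29, -0.22 and -0.29. Cox4i2 had a ratio of -0.49 (interval -0.89 to -0.10) with H3K9ac well above input. With 7G8 the ratio of Cox4i2 over H3K9ac was -1.67, near the members' median of -1.60. Its difference from Cox4i1 in that ratio was 0.33 (interval -0.31 to 0.96). Over the 7 pairs the median difference in 7G8 over H3K9ac was 0.68, with 4 intervals above 0. Cox8a enters 2 of the pairs, and the input enters both members of each comparison. The H3K9ac difference shrank to a median of -0.62 when only 500 bp on each side were counted, a window chosen after seeing the data. Within this window Cox6a2 had 21 H3K9ac, 28 13HH3, 15 7G8 and 8 input tags and Cox8b 46, 25, 14 and 17, so that both passed 2-fold for H3K9ac, at 1.13 and 1.17.

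**Figure D2:**
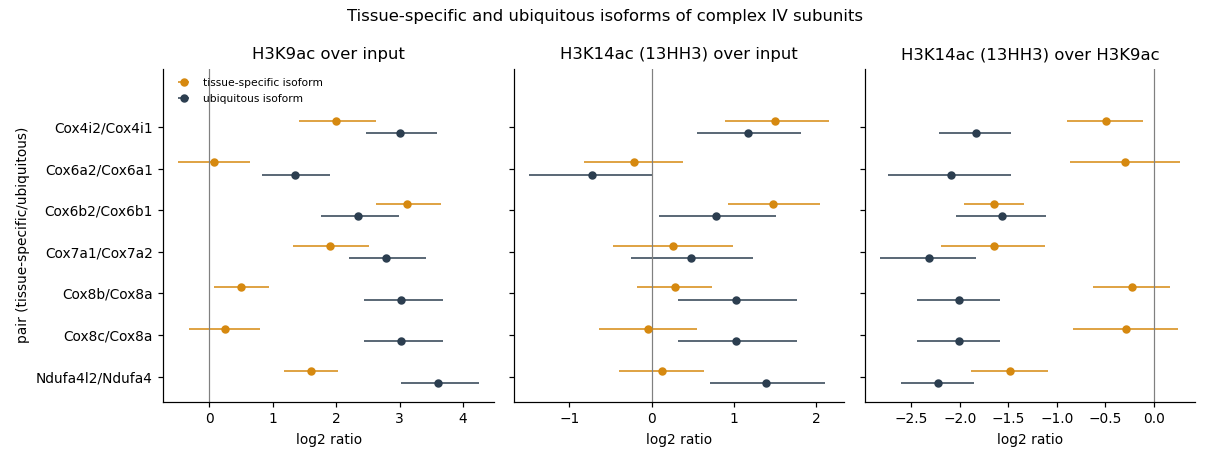
Log2 H3K9ac over input, 13HH3 over input and 13HH3 over H3K9ac (panels, log2 ratio) for the tissue-specific (orange) and ubiquitous (dark) isoform of 7 pairs, with exact 95% counting intervals from 1 library each. In H3K9ac the tissue-specific isoform is lower in 6 pairs and higher for Cox6b2, and in 13HH3 over H3K9ac it is higher in 6 pairs.

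The members with the highest and lowest 13HH3 relative to H3K9ac fell on opposite sides of this division. The highest log2 13HH3 over H3K9ac were -0.02 at Cox7b2, -0.22 at Cox8b and -0.29 at Cox8c, all tissue-specific isoforms under 2-fold for H3K9ac. The lowest were -2.90 at Ndufv3, an accessory subunit of the NADH dehydrogenase module, -2.73 at Ndufb3 and -2.66 at Ndufb10, all of complex I. Ndufv3 had 168 H3K9ac, 21 13HH3, 59 7G8 and 36 input tags. Thus 13HH3 was below input (-0.94), while 7G8 at 0.41 could not be told from input within counting error. Ndufb10 had 312, 46, 84 and 28 tags. With 7G8 over H3K9ac the same 3 genes were at -1.55, -1.84 and -1.93, closer to the members' median of -1.60. The highest 7G8 over H3K9ac was at Atp5l-ps1, which is no tissue-specific isoform (0.40, interval -0.67 to 1.51). Across the 89 members, Spearman's rho was 0.80 between H3K9ac and 13HH3 over input, 0.89 between H3K9ac and 7G8 and 0.79 between both H3K14ac antibodies. All 3 share the input of the gene, which alone makes such ratios move together.

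**Figure D3:**
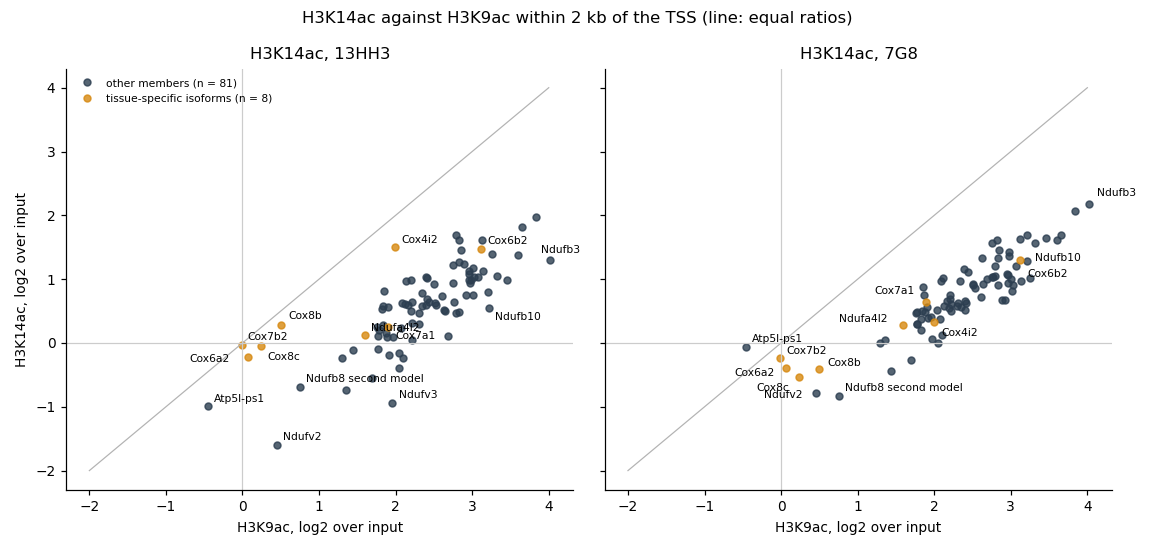
Log2 H3K14ac over input (y axis, 13HH3 left and 7G8 right) against log2 H3K9ac over input (x axis) within 2 kb of the TSS, 1 point per member, with 8 tissue-specific isoforms in orange and the other 81 members dark. The grey line marks equal ratios. Cox7b2, Cox8b, Cox8c and Cox6a2 lie near that line in 13HH3, and Ndufv3, Ndufb3 and Ndufb10 lie farthest below it.

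Around the TSS H3K9ac over input of the members was higher on both sides than at the average promoter, with a dip of the ratio between the sides in both. Over the 81 members without the tissue-specific isoforms, H3K9ac summed in bins of 100 bp reached 8.88-fold over input 150 bp upstream and 9.90-fold 650 bp downstream of the TSS, with 5.94-fold at 50 bp downstream between them. In steps of 500 bp, the first downstream of the TSS held the most H3K9ac tags (4912) and also the most input tags (559) of these members. The dip is therefore one of the ratio and not of H3K9ac tags at that scale. All TSSs reached 4.41-fold upstream and 4.42-fold downstream. For 13HH3 the maxima of the members were 2.04-fold upstream and 2.25-fold downstream, beside 1.53 and 2.01 at all TSSs. For 7G8 they were 2.57-fold upstream and 3.02-fold downstream, beside 1.70 and 1.57, so that the higher side was downstream at the members and upstream at all TSSs. Between 4.5 and 5 kb away H3K9ac was still 1.798-fold over input at the members and 1.45-fold at all TSSs, whereas 13HH3 (0.98) and 7G8 (0.83) were not above input. The 500 bp with the most H3K9ac tags was centred within 1 kb of the TSS in 85 of 89 members (95.5%), compared with 80.4% of all TSSs.

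**Figure D4:**
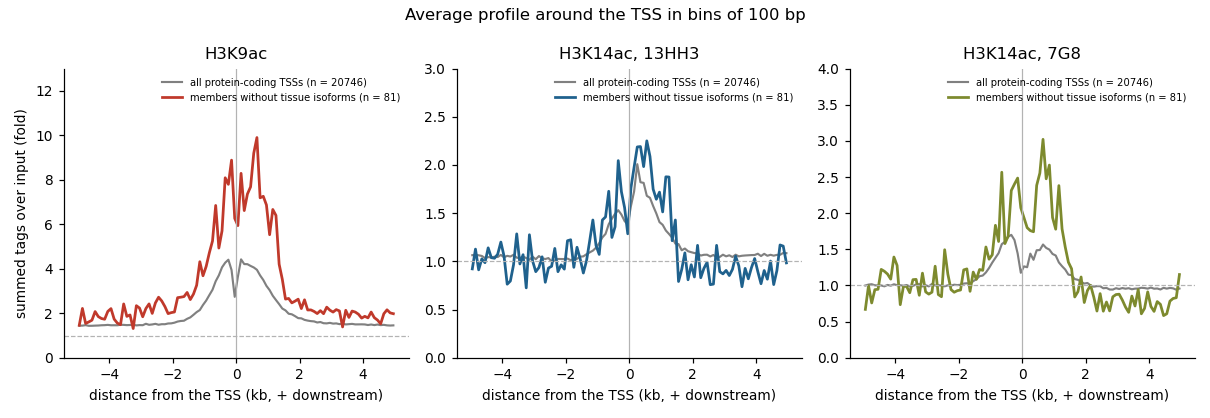
Summed tags over input (fold, bins of 100 bp) against the distance from the TSS (kb, positive downstream) for 81 members without tissue-specific isoforms (coloured) and all 20746 TSSs (grey), for H3K9ac, 13HH3 and 7G8, with a scale of its own in each panel. In H3K9ac the members peak at 9.90-fold and all TSSs at 4.42-fold, and both ratios to input dip near the TSS.

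Many members shared their promoter with another gene. A divergent TSS within 1 kb upstream was annotated for 19 members (21.3%), compared with 7.70% of all TSSs, and 26 members (29.2%, beside 13.2%) had any other protein-coding TSS within 2 kb, so that tags cannot be assigned to 1 of the genes. Among the genes named here, Sdha starts 29 bp from Ccdc127, Sdhd 52 bp from Timm8b (a chaperone of protein import into mitochondria), Ndufb3 61 bp from Fam126b and Ndufv3 150 bp from Wdr4, and the start of Gabpa, which encodes a subunit of the ETS factor GABP, lies 700 bp downstream of that of Atp5j on the other strand. None of the 8 tissue-specific isoforms had another TSS within 2 kb, but 8 genes are few beside a share of 13.2% over all TSSs. The median log2 H3K9ac over input was 2.76 at the 19 divergent members and 2.20 at the 63 members with no other TSS within 2 kb, compared with 2.52 and 1.11 over all TSSs of these kinds. More H3K9ac tags, not scaled to input, lay downstream than upstream of the TSS in 92.1% of the 63 members without a neighbour (70.5% of such TSSs) and in 52.6% of the divergent ones (44.1%). In the former the median log2 of downstream over upstream tags was 0.85 for H3K9ac and 0.14 for input.

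CpG content set the tissue-specific isoforms apart from most other members. Within 500 bp of the TSS the median number of CpGs was 21 at the 8 tissue-specific isoforms, 56 at the other 81 members and 44 at all TSSs. The fewest CpGs were 12 at the second model of Ndufb8, and 13 at both Atp5l-ps1 and Ndufa4l2. The most were 134 at Cox4nb, 128 at Cox4i1 and 100 at Atp5j, a subunit of the peripheral stalk of ATP synthase, with log2 H3K9ac over input of 2.96, 3.01 and 2.96. In each of the 7 pairs the tissue-specific isoform had fewer CpGs, from 36 and 47 for Cox6b2 and Cox6b1 to 34 and 128 for Cox4i2 and Cox4i1. Spearman's rho between CpGs and log2 H3K9ac over input was 0.72 over all TSSs, 0.35 over the 89 members and 0.24 over the 81 without tissue-specific isoforms. Few CpGs did not always go with low H3K9ac, since Cox7a1 with 17 CpGs was at 1.90 and Ndufa4l2 with 13 at 1.60, and Cox6a1 with 96 CpGs was at 1.36, lower than either. At Ndufa4l2, however, the stretch with the most H3K9ac tags lay outside the 500 bp in which CpGs were counted, at the edge of the 2 kb window.

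**Figure D5:**
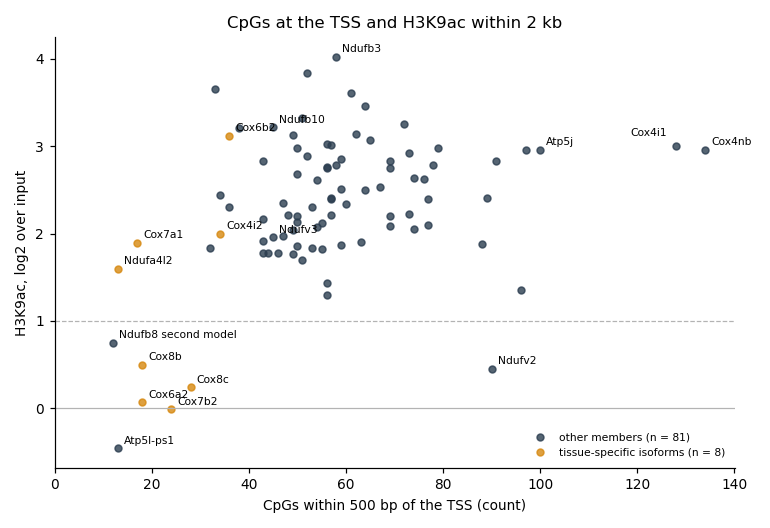
Log2 H3K9ac over input within 2 kb of the TSS (y axis) against the number of CpGs within 500 bp of the TSS (x axis), 1 point per member, with 8 tissue-specific isoforms in orange. The tissue-specific isoforms lie at 13 to 36 CpGs, and Ndufv2 is the one member with many CpGs (90) that lies below the dashed line of 2-fold.

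Motifs of the factors known for this gene family were more frequent than at the average promoter. Between 250 bp upstream and 50 bp downstream of the TSS, on either strand, the NRF1 motif GCGCNTGCG was found in 24 of 89 members (27.0%) beside 8.56% of 21418 promoters, the ETS motif CCGGAAG in 17 (19.1%) beside 11.1%, and the YY1 motif AAGATGGCG in 6 (6.74%) beside 1.87%. The estrogen-related receptor motif TCAAGGTCA was found in 2 members, Sdhd and Atp5g3 (a c subunit of ATP synthase), which is 2.25% beside 0.331%. CCAAT was as frequent as elsewhere (37.1% beside 37.5%), and TATAAA was found in 8.99% beside 13.4%. The ETS and YY1 matches overlapped in none of the members, and the NRF1 motif is palindromic enough that 1 stretch can match on both strands, as in Cox6a1. The ETS matches of Cox4nb and Cox4i1 are the same sites, counted for both genes. NRF1 matches were found in 9 of 35 members of complex I, 2 of 4 of complex II, 3 of 8 of complex III, 1 of 18 of complex IV and 7 of 15 of complex V. At least 1 of the NRF1, ETS and YY1 motifs was found in 40 members (44.9%, beside 19.3%) and in 0 of the 8 tissue-specific isoforms. The share at the isoforms rests on 8 genes and was not tested against the 19.3% of all promoters. These 3 motifs contain CpGs, of which the tissue-specific isoforms have few and the members together more than all TSSs (medians of 56 and 44). The shares were not compared at equal CpG content. Members with the NRF1 motif had a median log2 H3K9ac over input of 2.40 and those without it 2.30.

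Other mitochondrial genes also carried H3K9ac. The median log2 H3K9ac over input was 2.35 at 77 mitochondrial ribosomal protein genes, of which 97.4% reached 2-fold (57.8% of all TSSs). It was 2.21 at 16 genes of the tricarboxylic acid cycle and the pyruvate dehydrogenase complex and 2.30 at 23 other assembly factor genes, all of which reached 2-fold. In the same order, the median log2 13HH3 over H3K9ac of these groups was -1.83, -1.85 and -1.76, beside -1.82 for the respiratory chain genes. Of 11 regulators of respiration 9 reached 2-fold (57.8% of all TSSs). Those that did not were Ppargc1a, the coactivator PGC-1 alpha (-0.46), and Tfb1m, a methyltransferase of mitochondrial ribosomal RNA (-0.03). The latter had 196 H3K9ac and 167 input tags and lies on chromosome 17, as do Ndufv2 and Ndufa7, which was at 3.83. Of the cytochrome c genes, the somatic Cycs was at 3.25 and the testis form Cyct lower, at 2.37, while log2 13HH3 over H3K9ac was -1.97 at Cycs and -0.92 at Cyct.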

How the data were processed

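The deposited BED files list 1 line per mapped tag with its start and end, and hold no other measured value. The authors aligned the tags to mm9 with ELAND, allowing 1 mismatch. Peaks were not used here. Of the 13HH3 tags 3.303% repeated a position and strand, whereas the other libraries held no repeats. Here repeats were reduced to 1 tag, tag 5′ ends were moved by 100 bp, and tags within 2 kb of 1 TSS per gene were counted. The TSS was the start shared by most protein-coding transcripts within 250 bp. Counts were scaled by the kept tags on chromosomes 1 to 19, X and Y and divided without pseudocount, at TSSs with at least 5 input tags. Intervals are exact (95%), by Clopper-Pearson for single ratios. For differences within isoform pairs they are those of the conditional odds ratio of the tag counts at the 2 genes. Sequences are from the NCBIM37 (mm9) genome. Python 3.11.15, numpy 2.4.6, scipy 1.17.1 and pandas 2.3.3 were used, and functions were tested on simulated data. Named with values were the isoform pairs and Cox7b2, the highest and lowest H3K9ac over input of each group and members under 2-fold. So were the 3 highest and lowest 13HH3 over H3K9ac, overlapping windows and the 3 fewest and most CpGs. The members and lists were chosen with earlier results of these data known. The listed genes Pdha1 and Akap4 (X-linked) and Timmdc1 (a symbol without a match here) were left out.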

Additional observations from a re-analysis of the deposited data

Results flagged for a closer look

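Signal outside the comparisons above, and above input, was present at 3 X-linked genes of the same name pattern and on the mitochondrial chromosome. Log2 H3K9ac over input was 2.78 at Ndufb11, 2.15 at Ndufa1 and 2.76 at Cox7b, with 16, 19 and 25 input tags. With 13HH3, Ndufb11 was at 1.26 (interval 0.41 to 2.19), whereas Ndufa1 at 0.34 and Cox7b at -0.11 had intervals that included 0. With 7G8, Ndufa1 at 0.84 and Cox7b at 0.75 had intervals above 0, and Ndufb11 at 0.83 had one that included 0 (-0.07 to 1.78). On the mitochondrial chromosome, which encodes 13 respiratory chain subunits and carries no histones, H3K9ac was at 1.04 (1943 tags against 785 in input), 7G8 at 0.84 (1740 tags) and 13HH3 at -0.25 (738 tags). The cause was not tested.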

How the results depend on the processing

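With 1 library per antibody no interval covers variation between cultures or ChIPs. Library totals set the zero: scaling to the median of 10 kb bins moved every log2 H3K9ac over input by 0.35, and all TSSs with it. The count of members at 2-fold moved by more than 1.5 times for 13HH3 to 15 with flank scaling (12.0% of all TSSs) and to 48 at 1.5-fold (36.8%), and for 7G8 to 49 within 1 kb of the TSS (26.1%) and to 54 at 1.5-fold (36.6%). Among the 63 members with no other TSS within 2 kb it was 14 for 13HH3 (22.2%, beside 15.0% of such TSSs) and 16 for 7G8 (25.4%, beside 14.1%), where fewer members were counted. Where all 89 members were counted, the H3K9ac count stayed between 73 and 83. The median isoform difference in H3K9ac was -2.23 with flank scaling. Among single values whose counting interval excluded 0, the sign changed for Ndufv2 in 7G8 (from -0.79 to 1.03) and Cox8b in H3K9ac (from 0.50 to -0.51) with flank scaling, and for Cox6b1 in 13HH3 (from 0.78 to -0.048) within 500 bp; values with an interval that included 0 are not listed. Flank scaling and the 500 bp window were added after seeing the data. No paired analysis was possible because each group held 1 library.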
